A study of Mus musculus with 3 samples.

Results

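Cholesterol and fatty acid synthesis was followed through 31 genes, listed by name, in cells from the mouse ankle synovium, the lining tissue of the joint. All 31 were found among the 56833 genes of the deposited table, and each had reads in every library. The cells came from Efhd1CreER; Ai9 mice, in which a Cre recombinase expressed from Efhd1 and activated by tamoxifen-type ligands switches on the red reporter tdTomato of the Ai9 allele. Synovia were digested with up to 2 in a tube, and the cells were sorted for tdTomato, are called telocytes by the labels, and were kept for 24 h on collagen-coated plates whose stiffness was 0.2, 8 or 64 kPa, here named soft, intermediate and stiff. All 3 levels share genotype, sort and coating. The labels give no animal age and no number of animals.

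Each level had 1 library. Differences therefore lack any check against replicates, and no p-value is given: cultures and stiffness levels cannot be told apart. The libraries held 25487064 (soft), 28081600 (intermediate) and 26474862 (stiff) reads. Of the defining markers, Efhd1 had only 10, 5 and 3 reads in that order, whereas Pdgfra, a receptor of fibroblasts and telocytes, had 4991 to 6681. Among the other telocyte markers listed, Cd34 had 229 to 310 reads, Foxl1 181 to 247, Kit 41 to 44 and Gli1 8 to 12. Reads of other cell types were present: 12 of 12 macrophage markers were detected, with a summed level of 30259 normalized counts (soft), 37395 (intermediate) and 65543 (stiff). Of 8 adipocyte markers, Adipoq (759 to 1058 reads) and Fabp4 (3259 to 4126 reads) were detected and Lep was at 0 in every library, which allows up to 3 reads. In bulk RNA, fewer cells of a type and less RNA per cell cannot be told apart.

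Cholesterol is built from acetyl-CoA through mevalonate, isoprenoid units and squalene, and then through a series of sterol intermediates. Fatty acids are built from the same acetyl-CoA by carboxylation, chain growth and desaturation. Both routes are controlled by the SREBP transcription factors, which Scap escorts from the endoplasmic reticulum for cleavage when membranes are poor in sterol, and which Insig proteins hold back when sterol is plentiful. In connective tissue cells these routes supply membrane and protein prenylation.

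SREBPs bind DNA beside the factors NF-Y and Sp1, so the promoters of the members were searched for letters these factors are known for, on both strands. The RefSeq table of promoters (GRCm38.p6) covers 250 bases before to 50 bases after a start site, and 25 of the 31 members matched, with 31 promoters. CCAAT, the NF-Y box, was found in 21 of the 31 promoters (67.7%), against 37.4% of all 32851 promoters in the table. GGGCGG, the Sp1 box, was found in 23 (74.2%), against 35.7% of all. The palindrome CACGTG, the E box, was found in 6 (19.4%), against 7.15% of all. The form TCACNCCAC of the sterol regulatory element was found in 1 (3.23%), that of Hmgcs1, against 1.24% of all. Its shorter core CACCCCAC, which overlaps that form, was found in 2 (6.45%), those of Hmgcs1 and Acat2, against 2.87% of all. These matches describe the letters of the window and are not binding sites.

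The promoters below belong to the enzyme with the lowest stiff to soft ratio (Hmgcs1), an enzyme lower at both stiffness steps (Msmo1), the member with the highest ratio (Fasn) and a regulator higher at both steps (Srebf2). Each is the 250 bases before the start site on the gene's own strand of GRCm38.p6, with NF-Y boxes and the forms of the sterol regulatory element in capitals on either strand.
Hmgcs1, chr13:119690101-119690350, plus strand: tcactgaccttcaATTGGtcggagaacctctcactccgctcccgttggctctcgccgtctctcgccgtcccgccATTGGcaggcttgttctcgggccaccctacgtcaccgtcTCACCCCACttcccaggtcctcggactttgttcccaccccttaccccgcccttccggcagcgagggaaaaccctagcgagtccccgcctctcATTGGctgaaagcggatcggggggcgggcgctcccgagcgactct
Msmo1, chr8:64733579-64733828, minus strand: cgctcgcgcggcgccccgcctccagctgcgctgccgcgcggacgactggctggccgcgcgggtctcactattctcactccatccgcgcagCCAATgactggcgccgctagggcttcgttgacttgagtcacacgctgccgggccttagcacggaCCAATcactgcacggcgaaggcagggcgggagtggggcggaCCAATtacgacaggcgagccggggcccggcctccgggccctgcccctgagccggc
Fasn, chr11:120824548-120824797, minus strand: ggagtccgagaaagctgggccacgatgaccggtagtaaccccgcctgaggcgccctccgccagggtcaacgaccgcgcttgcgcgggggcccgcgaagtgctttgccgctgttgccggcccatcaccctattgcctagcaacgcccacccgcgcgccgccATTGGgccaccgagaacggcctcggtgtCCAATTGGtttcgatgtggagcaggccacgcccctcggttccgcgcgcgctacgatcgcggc
Srebf2, chr15:82147019-82147268, plus strand: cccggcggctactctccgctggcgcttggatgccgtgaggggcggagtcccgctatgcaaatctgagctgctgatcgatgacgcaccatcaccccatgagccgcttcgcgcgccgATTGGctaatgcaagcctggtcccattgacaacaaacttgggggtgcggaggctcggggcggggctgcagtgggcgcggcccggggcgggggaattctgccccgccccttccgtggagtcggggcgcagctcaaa

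The promoter of Hmgcs1 holds the sterol regulatory element form 137 bases before the start site, and 3 NF-Y boxes in the stretch shown. Those of Msmo1 and Fasn hold 3 NF-Y boxes each, of which 2 in Fasn share bases.

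Levels were read in normalized counts, that is, reads per gene after each library was scaled by its own size factor. Across the plates most members stayed close: the stiff to soft log2 ratios (computed with a pseudocount of 1) ran from -0.39 for Hmgcs1 to 0.74 for Fasn, with a median of -0.05 against 0.00 over the 11873 genes whose mean was at least 50 normalized counts. All 31 members met that minimum. Counted by role, of the 18 enzymes from acetoacetyl-CoA to cholesterol 13 were lower and 5 higher in the stiff library, of the 7 genes of fatty acid synthesis 5 were higher and 2 lower, and of the 4 genes of the SREBP system 3 were higher and 1 lower. With a trend of transcript length and GC content subtracted these became 11 lower and 7 higher, 6 lower and 1 higher, and 4 lower and 0 higher. Several of these values were close to 0: in the SREBP system Scap and Insig1 stood at -0.02, Srebf1 at -0.07 and Srebf2 at -0.15. Scaled by total reads, Acat2, Sqle and Sc5d, each at 0.02, also changed sign. The transporter gene Stard4 was lower and Lpin1 was higher. Over all genes tested 6064 were higher and 5809 lower as deposited. With the trend subtracted, 5760 of those with a known length were higher and 5870 lower. The plot of levels by gene shows how small the distances between libraries were beside the distances between genes.

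**Figure D1:**
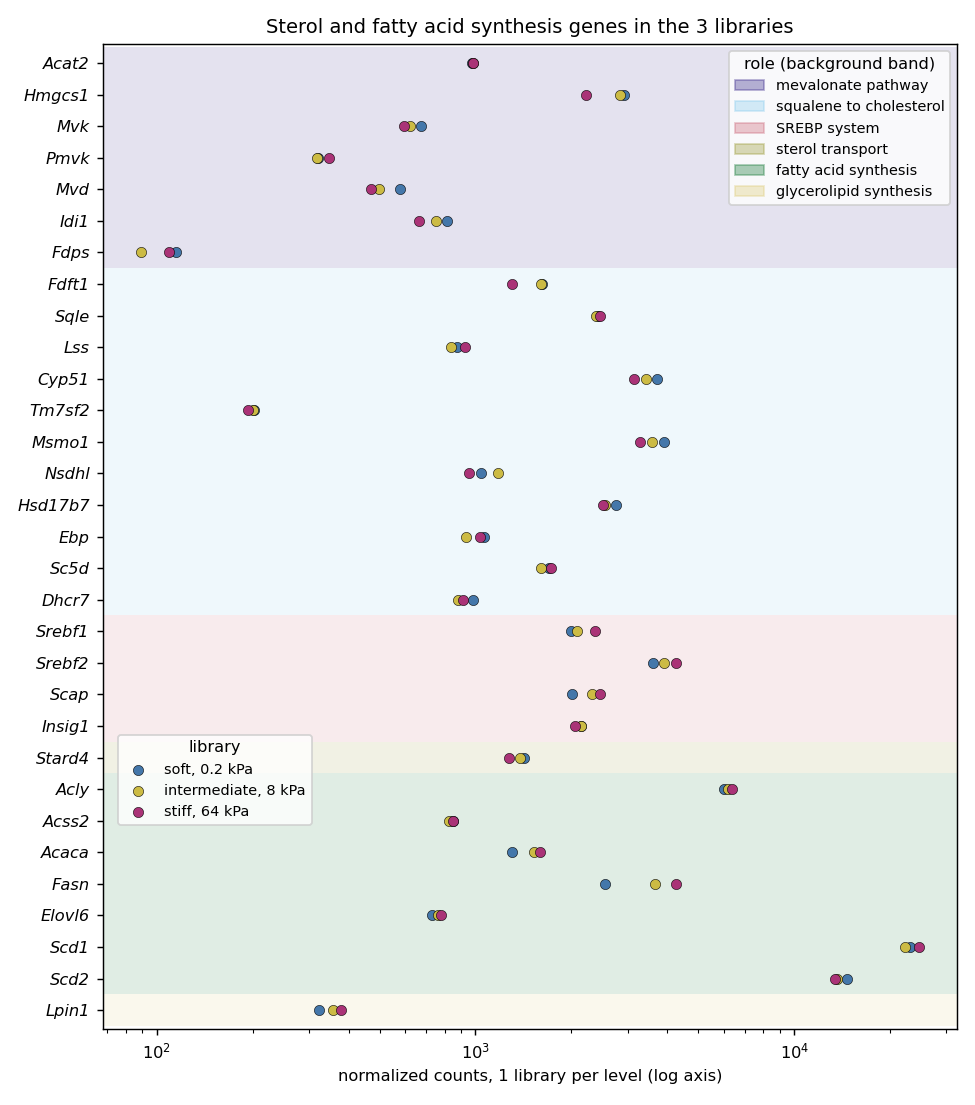
Normalized counts (log axis) of the 31 genes in the soft, intermediate and stiff libraries, 1 point per library, with genes in bands by role. Scd1 and Scd2 lie highest and Fdps lowest in every library, and only Fasn shows libraries set far apart, at 2547, 3656 and 4258.

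A log2 ratio of at least 0.5 in size, which is 1.41-fold, was used to call a difference. Between stiff and soft 1 of 31 members was called higher, Fasn, and 0 were called lower. Among all genes tested 11.8% were called higher and 3.77% lower. Between intermediate and soft Fasn alone was called higher and 0 members lower, against 3.94% and 0.657% of all genes. Between stiff and intermediate 0 members were called, against 5.42% of all genes higher and 3.42% lower. The members were thus called no more often than genes in general, and the results below are mostly small differences set beside counting error.

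Counting error was taken from the reads, as the exact 95% Clopper-Pearson interval of the share of reads between both libraries. It leaves out differences between cultures, and amplified reads are not independent molecules, so an interval that excludes 0 compares 2 libraries and not 2 conditions. Between stiff and soft the interval lay above 0 for 8 members and below 0 for 10, against 31.3% of all genes above and 25.9% below. Between intermediate and soft it lay above 0 for 5 and below for 8, against 21.8% and 13.5%. Between stiff and intermediate it lay above 0 for 8 and below for 7, against 26.3% and 22% of all genes. The members are more abundant than genes in general, with a median mean of 1474 against 768 normalized counts, which narrows their intervals.

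**Figure D2:**
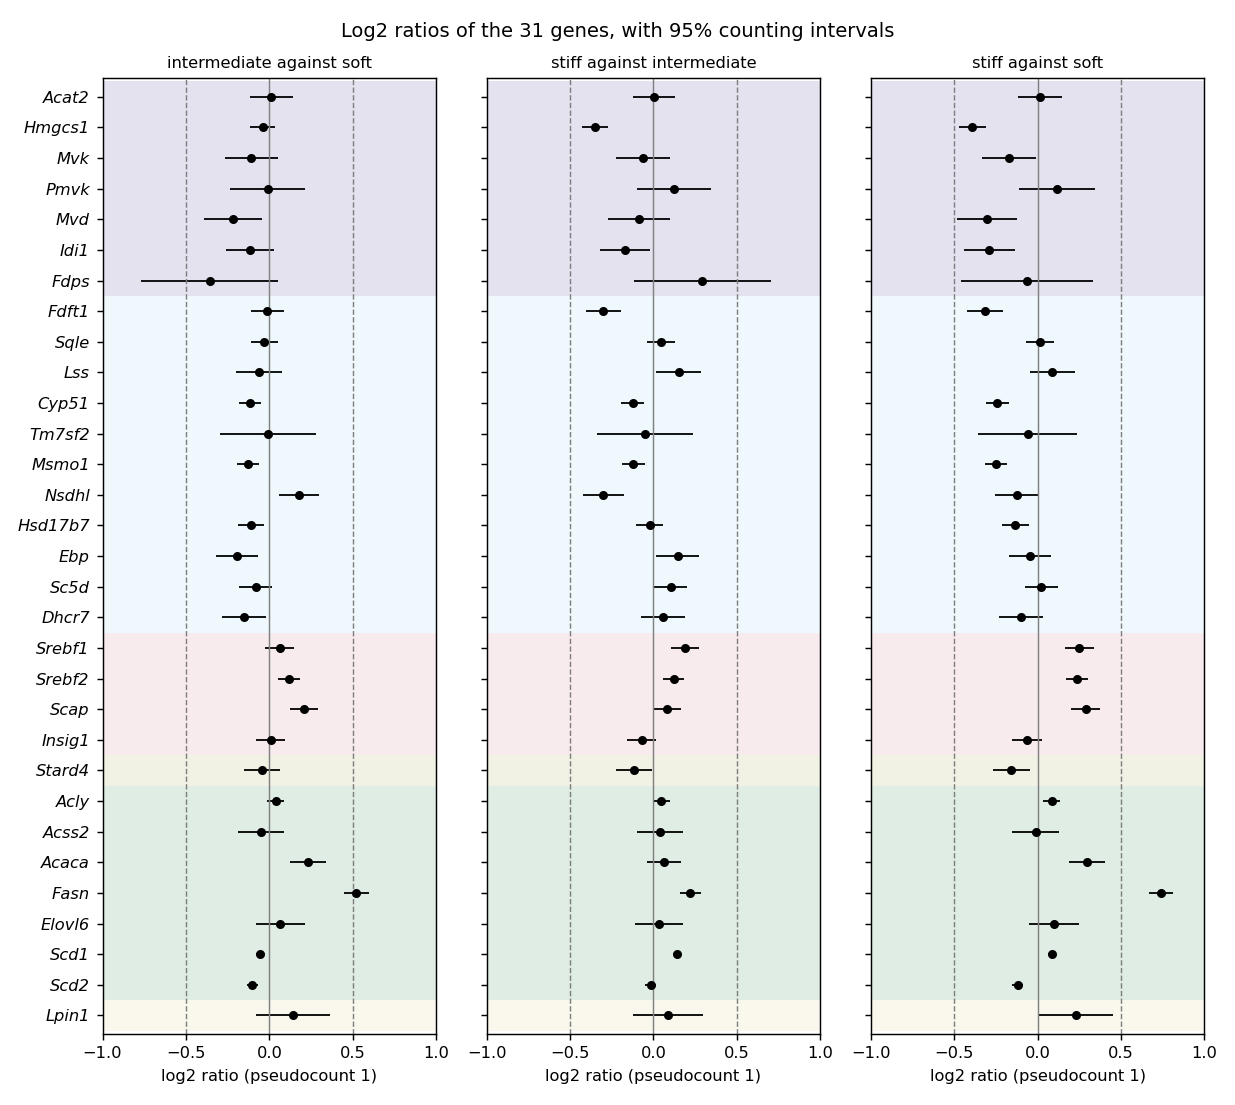
Log2 ratios of the 31 genes for each pair of libraries, with points for the ratio, bars for the 95% counting interval and dashed lines at 0.5 in either direction. Only Fasn passes a dashed line, at 0.52 between intermediate and soft and at 0.74 between stiff and soft, while Hmgcs1 lies lowest between stiff and soft at -0.39.

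The mevalonate pathway, from acetoacetyl-CoA to farnesyl diphosphate, had 7 members. The median stiff to soft log2 ratio was -0.17, with 5 members lower and 2 higher. Hmgcs1 (chromosome 13, 120151915 to 120170470, plus strand of GRCm39, 10 exons in its canonical transcript) encodes the cytosolic HMG-CoA synthase, which condenses acetoacetyl-CoA with acetyl-CoA. It had 2916 normalized counts (soft), 2836 (intermediate) and 2224 (stiff). The stiff library stood apart from both others: the log2 ratio was -0.39 to soft, with a counting interval from -0.47 to -0.31, and -0.35 to intermediate, from -0.43 to -0.27. Between intermediate and soft the interval, from -0.11 to 0.03, included 0.

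Mvd, the decarboxylase that makes isopentenyl diphosphate, had 580.3 normalized counts (soft), 499 (intermediate) and 470 (stiff), a stiff to soft ratio of -0.30 (-0.49 to -0.12). Idi1, the isomerase that follows it, had 813, 749 and 666, a ratio of -0.29 (-0.44 to -0.14), which was -0.09 with the trend of the ratios with transcript length and GC content subtracted. For both, the soft library was highest and the stiff library lowest. Mvk, the kinase of mevalonate, went the same way with 674, 625 and 598, a ratio of -0.17 (-0.34 to -0.01).

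The other 3 members of this stretch showed no order beyond counting error. Acat2, the thiolase that makes acetoacetyl-CoA, had 973, 981 and 983 normalized counts from soft to stiff. Pmvk, the kinase of phosphomevalonate, had 321, 319 and 348. Fdps, the farnesyl diphosphate synthase, had only 112, 95 and 107 reads, and its stiff to soft interval ran from -0.46 to 0.33. The Fdps transcript has 5 pseudogene copies of 91.1% to 98.9% identity over at least 605 bases, which had at most 7 reads each, so the Fdps count is uncertain. Acat2 is uncertain too, as its copy Acat3 is 97.7% identical over 1477 bases, and its exons overlap those of Tcp1 on the opposite strand by 322 bases.

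From squalene to cholesterol there were 11 members, with a median stiff to soft log2 ratio of -0.10, of which 8 were lower and 3 higher. Fdft1, squalene synthase and the first step that serves sterols alone, had 1618 normalized counts (soft), 1604 (intermediate) and 1302 (stiff). Like Hmgcs1 it differed at the step from intermediate to stiff, with a ratio of -0.30 (-0.41 to -0.19), and not between intermediate and soft, at -0.01 (-0.11 to 0.09). Its exons share 1184 bases with the opposite strand of Ctsb, a gene of 32380 to 44995 reads, and the strand setting of the counting is not given in the sources used here.

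Cyp51, the lanosterol demethylase, and Msmo1, the methylsterol oxidase that acts after it, were the members below 0 at both steps by the counting interval. Cyp51 had 3704 normalized counts (soft), 3419 (intermediate) and 3134 (stiff), and Msmo1 had 3912, 3579 and 3292. The stiff to soft ratios were -0.24 (-0.31 to -0.17) and -0.25 (-0.32 to -0.18), and -0.17 and -0.13 with the trend subtracted. Of all genes tested 4.40% were below 0 at both steps in this way. Hsd17b7, a sterol ketoreductase, was lower in both other libraries than in the soft one, with 2756, 2552 and 2511, a stiff to soft ratio of -0.13 that was -0.06 with the trend subtracted.

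The remaining enzymes of this stretch did not differ between stiff and soft beyond counting error. Sqle, the squalene epoxidase, was nearly level, with 2430 normalized counts (soft), 2380 (intermediate) and 2456 (stiff). Nsdhl, a sterol dehydrogenase that helps remove methyl groups, was highest in the intermediate library, with 1042, 1176 and 955 from soft to stiff. Ebp, the sterol isomerase, was lowest there, with 1064, 931 and 1030. The others were Lss (stiff to soft ratio 0.09), the lanosterol synthase, Tm7sf2 (-0.06), a sterol reductase whose exons overlap those of Vps51 on the same strand by 532 bases, Sc5d (0.02), a sterol desaturase, and Dhcr7 (-0.10), which makes cholesterol from its last precursor in one branch.

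Summed over the 18 enzymes, the level was 26675 normalized counts (soft), 25266 (intermediate) and 23846 (stiff). Of the 18 the counting interval between stiff and soft lay below 0 for 8 and above 0 for none, against 25.9% and 31.3% of all genes tested. The 8 were Hmgcs1, Mvk, Mvd, Idi1, Fdft1, Cyp51, Msmo1 and Hsd17b7. Adipocyte markers and mitosis genes, neither part of these routes, had medians below 0 between stiff and soft. Of the 5 adipocyte markers tested 4 were lower and Lpl was higher at 0.19, with 0 called, a median ratio of -0.16 and a summed level, over all 8, of 10540 (soft), 11336 (intermediate) and 10028 (stiff). Of the 10 mitosis genes 8 were lower and 2 higher, Top2a at 0.07 and Mki67 at 0.19, with 1 called lower (Ccnb2, at -0.67), a median of -0.27 and sums of 14097, 15278 and 11917. The part of either in the sterol result was not tested.

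Of the 4 genes of the SREBP system, 3 were higher in the stiff library as deposited. Srebf2, the SREBP gene that mainly serves sterol synthesis, had 3601 normalized counts (soft), 3908 (intermediate) and 4247 (stiff), a stiff to soft ratio of 0.24 (0.17 to 0.30). Srebf1, whose products mainly serve fatty acid synthesis, had 1989, 2075 and 2365, a ratio of 0.25 (0.16 to 0.34). Scap, the sterol-sensing escort, had 2008, 2319 and 2455, a ratio of 0.29 (0.20 to 0.38), and its interval between stiff and intermediate, from 0.00 to 0.16, only just excluded 0. All 3 were lowest in the soft and highest in the stiff library, but none reached the 0.5 used for a call, and with the length and GC trend subtracted all 3 stood below 0 between stiff and soft. Insig1, which retains Scap and is itself an SREBP target, had 2136, 2148 and 2046, with an interval from -0.15 to 0.03. Stard4, a carrier of cholesterol between membranes, had 1424, 1383 and 1276, a ratio of -0.16 (-0.27 to -0.05).

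Fatty acid synthesis held the one called member. Fasn (chromosome 11, 120696672 to 120715995, minus strand of GRCm39, 42 exons) encodes the fatty acid synthase, which builds palmitate. It had 2547 normalized counts (soft), 3656 (intermediate) and 4258 (stiff). The log2 ratio was 0.52 (0.45 to 0.59) from soft to intermediate, 0.22 (0.16 to 0.28) from intermediate to stiff and 0.74 (0.67 to 0.81) over both, so the larger part of the difference lay at the softer step. Fasn, Srebf2 and Scap were the members above 0 at both steps by the counting interval, as were 10.6% of all genes tested. With the length and GC trend subtracted, Fasn was no longer higher, at -0.09 between stiff and soft and -0.07 between intermediate and soft.

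Acaca, the acetyl-CoA carboxylase that feeds Fasn with malonyl-CoA, had 1300 normalized counts (soft), 1527 (intermediate) and 1596 (stiff), a stiff to soft ratio of 0.30 (0.19 to 0.40). A processed pseudogene, Gm5182, is 99.2% identical to it over 6118 bases and had 5 to 7 reads. Acly, which makes cytosolic acetyl-CoA from citrate, had 6026, 6185 and 6389, a ratio of 0.08 (0.03 to 0.14). As deposited both were lowest in the soft and highest in the stiff library, but with the trend subtracted their stiff to soft ratios were -0.07 (Acaca) and -0.03 (Acly). Scaled by total reads, Acly stood at 0.03.

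Acss2, which makes acetyl-CoA from acetate, had 853, 825 and 847 normalized counts from soft to stiff. Elovl6, which lengthens palmitate, had 730, 764 and 780.4. Their intervals between stiff and soft included 0. Lpin1, a phosphatidate phosphatase on the way to triglyceride and a known SREBP target, had 323, 356 and 378, a ratio of 0.23 (0.01 to 0.45), so its lower bound was close to 0. Exons of Acss2 share 1511 bases with the opposite strand of Gss, a gene of 2243 to 2467 reads.

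The desaturases Scd1 and Scd2, which place a double bond in stearate and palmitate, were the most abundant members and took 43.2% (soft), 41.5% (intermediate) and 42.9% (stiff) of all reads of the 31 genes. Scd1 had 23098 normalized counts (soft), 22233 (intermediate) and 24528 (stiff). Scd2 had 14578, 13579 and 13413. Scd1 was thus highest and Scd2 lowest in the stiff library, at stiff to soft ratios of 0.09 (0.06 to 0.11) and -0.12 (-0.15 to -0.09), and both were lower in the intermediate than in the soft library. The stiff to soft ratios of Scd1 and Scd2 were 0.03 and -0.18 when scaled by total reads, and -0.002 and -0.22 with the length and GC trend subtracted. Per length, the Scd1 level was 1.72 times that of Scd2 in the soft, 1.78 times in the intermediate and 1.99 times in the stiff library. Their transcripts are 91.6% identical over 1012 bases, so reads from that stretch may be split between them.

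Levels were compared between genes per length, as reads per kilobase of canonical transcript scaled to 1 fixed total over all genes of a library. On this scale, in the soft library, Scd1 stood at 402, Scd2 at 234, Msmo1 at 131 and Acly at 119.6, above every other member. Within the sterol enzymes Msmo1 was followed by Sqle at 75.8, Cyp51 at 65.2 and Hmgcs1 at 62.3, whereas Fdps at 7.70, Tm7sf2 at 11.9 and, just above it, Lss and Mvk were the lowest. Srebf2, at 62.1, lay above Srebf1, at 40.1. The lowest of all was Lpin1 at 4.39. The place of Fdps is uncertain, as its count is, because of its pseudogene copies. Fasn, at 20.7, lay below Acly and above Acaca, and reached 34.6 in the stiff library.

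The order of the 3 libraries was read for each member. For 11 of 31 members (35.5%) the soft library was highest and the stiff library lowest with intermediate between, as for 25.6% of all genes tested. The opposite order held for 9 (29.0%), as for 30.2% of all genes. No member had the order of soft lowest and intermediate highest, which 8.87% of all genes had. Many of these orders rest on distances within counting error, and both steps lay beyond it in the same direction for 5 members, Cyp51, Msmo1, Srebf2, Scap and Fasn.

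The members differ in length and base composition, in part along the same line as in their ratios. The 18 sterol enzymes had a median transcript length of 2737 bases, and the 7 genes of fatty acid synthesis 5455. Fasn, at 10789 bases, and Acaca, at 9513, were the longest, and Srebf1, Srebf2 and Scap had GC contents of 57.9% to 59.1%. Other members went against this line: Mvd had the highest GC content, 59.4%, and a stiff to soft ratio of -0.30. Mvk, at 56.1% GC, and Scd2, at 5455 bases, were lower too, at -0.17 and -0.12. Across 11630 genes tested, the stiff to soft ratio had a Spearman correlation of 0.26 with length and 0.26 with GC content. Over the 31 members, which come from the same libraries, these were 0.41 and 0.38.

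A local linear fit of each ratio on length and GC content over the 300 nearest genes gave a trend at each member, which was subtracted. For Fasn the fitted trend between stiff and soft was 0.83, above its own ratio of 0.74. After subtraction 7 of the 8 members whose interval had lain above 0 between stiff and soft stood below 0, namely Srebf1 (-0.07), Srebf2 (-0.15), Scap (-0.02), Acly (-0.03), Acaca (-0.07), Fasn (-0.09) and Scd1 (-0.002), and Lpin1 stood at 0.02. The 10 members whose interval had lain below 0 stayed below 0. Of these, Idi1 (-0.09), Msmo1 (-0.13), Hsd17b7 (-0.06), Cyp51 (-0.17), Stard4 (-0.12) and Hmgcs1 (-0.30) lay closer to 0 than as deposited. Mvk (-0.40), Mvd (-0.32), Fdft1 (-0.32) and Scd2 (-0.22) lay as far from 0 or farther. The median of the 31 was then -0.07, with 22 below and 9 above 0, and that of the 18 sterol enzymes -0.08. Among all genes tested with a known length 5870 were then below and 5760 above 0.

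**Figure D3:**
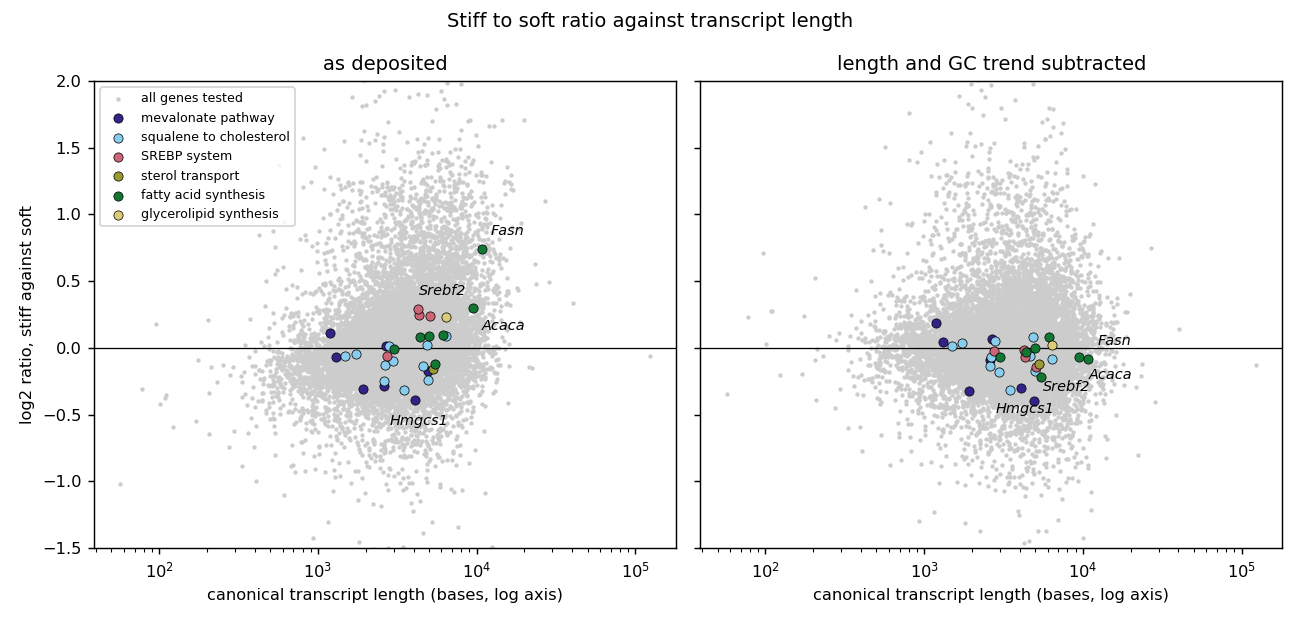
Stiff to soft log2 ratio against canonical transcript length (log axis), as deposited and with the trend of length and GC content subtracted, for all genes tested (grey) and the 31 members coloured by role. Fasn moves from 0.74 to -0.09, Acaca from 0.30 to -0.07, Hmgcs1 from -0.39 to -0.30 and Idi1 from -0.29 to -0.09.

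Other genes of these routes were taken from lists. Of 10 further genes of sterol and isoprenoid synthesis 0 were called between any libraries, and their stiff to soft median was -0.01. Nus1, a subunit of the enzyme that makes dolichol chains, was the most abundant of the list, with 5751 normalized counts (soft), 5529 (intermediate) and 5663 (stiff). Of 11 further regulators of SREBP 0 were called, with a median of 0.01. For both lists the shares over all genes tested were 11.8% higher and 3.77% lower between stiff and soft. Pgrmc1, a membrane protein that binds heme, was the most abundant of these by its mean, with 8709, 7921 and 7632.

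Of 16 genes of sterol uptake and trafficking 5 were called higher and 1 lower between stiff and soft, where 11.8% of all genes tested were called higher and 3.77% lower. The median of the list was 0.30 against 0.00 over all genes, and the difference between the list and other genes was not tested. Mylip, a ubiquitin ligase induced by LXR, was the gene called lower, with 564 normalized counts (soft), 480 (intermediate) and 353 (stiff), a ratio of -0.68 (-0.88 to -0.48). Its level was lowest in the stiff library.

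Genes called higher included Lrp1, a large scavenging receptor, at 1.24, Cd36, a fatty acid and lipoprotein receptor, at 0.76, Gramd1b, a cholesterol carrier, at 0.56, and Lrp8, at 0.53. With the trend subtracted these were 0.16, 0.97, 0.21 and 0.11. The most abundant gene of the list was Npc2, a lysosomal sterol carrier, with 25556, 25343 and 22373. Macrophages also express Cd36 and Lrp1, and 11 of 12 macrophage markers were called higher between stiff and soft, with a median ratio of 1.26. The part of macrophage RNA in the uptake genes was not tested.

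Of 10 genes of sterol efflux and its LXR regulators that met the minimum mean, 0 were called between stiff and soft, with a median of 0.02. All genes tested were called higher there in 11.8% and lower in 3.77%. Ch25h, which makes the SREBP-suppressing 25-hydroxycholesterol, was called lower between stiff and intermediate at -0.55, with 1387 normalized counts (soft), 1895 (intermediate) and 1294 (stiff). Soat1, which esterifies cholesterol for storage, was the most abundant of the list with 8109, 8916 and 8178. Both were highest in the intermediate library.

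Of 16 further genes of fatty acid synthesis that met the minimum mean, 1 was called between stiff and soft, Fads3, a member of the desaturase family, at 0.50, with 4404 normalized counts (soft), 4179 (intermediate) and 6250.4 (stiff). With the trend subtracted Fads3 stood at 0.45 and was not called. The median of the list was 0.05, and of all genes tested 11.8% were called higher and 3.77% lower between stiff and soft. Acsl4, which activates arachidonate and was the most abundant of the list by its mean, had 7897, 7829 and 6099, a ratio of -0.37.

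**Figure D4:**
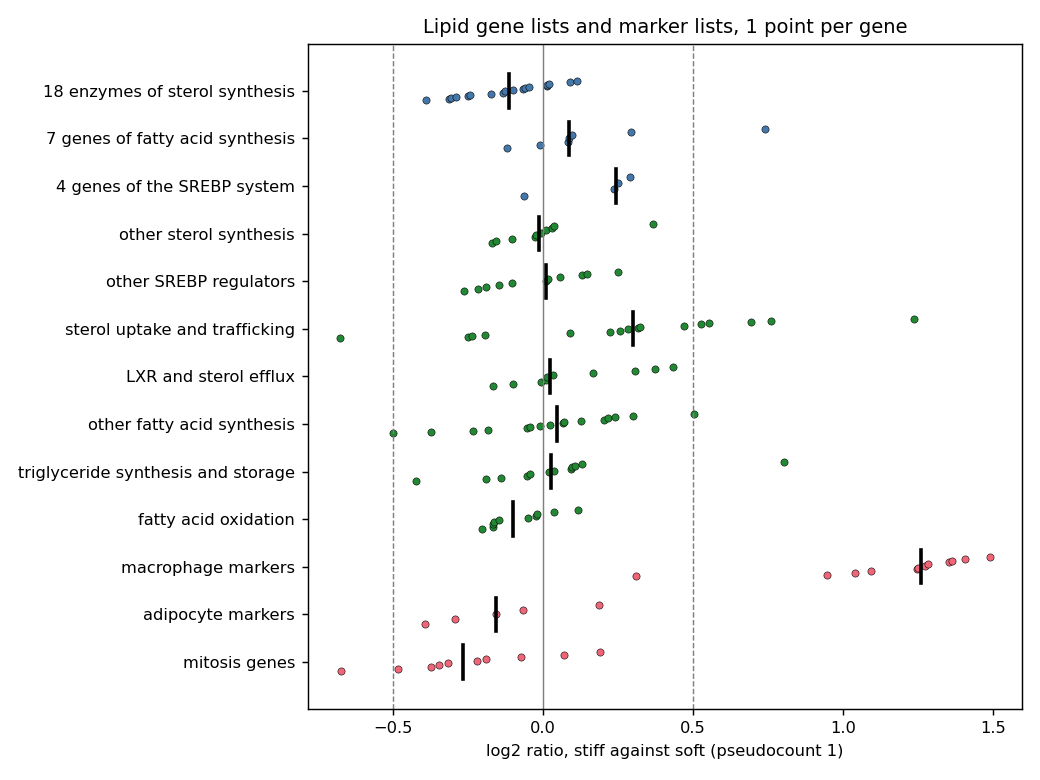
Stiff to soft log2 ratio of each gene in 3 groups of members (blue), 7 lists of other lipid genes (green) and 3 marker lists (red), with a black bar at each list's median and dashed lines at 0.5 in either direction. The bar lies at -0.11 for the 18 sterol enzymes, at 0.30 for sterol uptake and trafficking and at 1.26 for macrophage markers.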

How the data were processed

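The signal values are gene counts that the authors divided by a size factor per library, per the values of the files. The submitters' processing notes name bcl2fastq 2.20.0, STAR 2.7.9a, featureCounts of Subread 2.0.1, DESeq2 1.34.0 and GRCm39. The annotation and strand setting are not given in the sources used here. The 3 deposited files held identical values, and each column carries 1 sample's title. In each column 100% of values were whole multiples of the smallest (tolerance 0.001 reads), so whole reads were recovered. One read was worth 1.03 (soft), 0.943 (intermediate) and 1.03 (stiff) on the normalized scale.

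With 1 library per level no count test was made. Log2 ratios carry a pseudocount of 1, which understates the change of low genes. Lengths, GC contents and positions are those of Ensembl canonical transcripts in GENCODE vM39, matched by symbol, and near copies were sought with BLAST 2.17.0. The length and GC trend was fitted over 13878 genes with a mean of at least 10. The ratios and intervals were run on simulated counts that hold counting error alone, which the interval assumes. The trend fit was run on a simulated linear dependence on length and GC content. Neither simulation covers differences between cultures. Every member is named, and of the lipid lists the genes called in any comparison and the most abundant. Some genes of these lists are counted but not reported here by name. The members and lists were chosen with earlier results of these data known. Scripts ran in Python 3.11.15 with scipy 1.17.1, numpy 2.4.6, scikit-learn 1.9.0 and pandas 2.3.3.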

Additional observations from a re-analysis of the deposited data

How the results depend on the processing

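No paired analysis was possible because each stiffness level has 1 library, and no replicate could be left out. The call of Fasn depended on the length and GC trend: with it subtracted, Fasn reversed to -0.086 between stiff and soft and to -0.066 between intermediate and soft, and 0 members were called in either comparison. Of all genes, 7.64% were then called higher and 3.97% lower between stiff and soft. With upper quartile scaling 0 members were called between intermediate and soft. With a threshold of 0.25, 7 members were called between stiff and soft (3 higher, 4 lower, against 23.7% and 15.2% of all genes). Then 2 were called in the intermediate over the soft library (1 higher, 1 lower, against 14.0% and 4.35%) and 4 in the stiff over the intermediate (1 higher, 3 lower, against 16.2% and 12.5%). The counting interval gave 18, 13 and 15 in that order. With a threshold of 1 there were 0 between stiff and soft and 0 between intermediate and soft. Other pseudocounts and minimum means changed no count. The members' median stayed within the median bounds of their counting intervals under every alternative run, and the scalings shifted the median of all genes by at most 0.058. Scaled by total reads or with upper quartile scaling, 3 members changed sign between stiff and soft, all with intervals that include 0. The median of stiff against intermediate lay below 0, at -0.02, with the trend subtracted. The ratios of Fdps rest on 95 to 112 reads, and its pseudogene copies make that count uncertain.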

Other observations

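Of 12 genes of triglyceride synthesis and storage, 1 was called between stiff and soft: Pnpla2, the lipase that opens triglyceride, had 719.7 normalized counts (soft), 836 (intermediate) and 1256 (stiff), a log2 ratio of 0.80 (0.67 to 0.94), and 0.77 with the length and GC trend subtracted. Plin2, a coat protein of lipid droplets and the most abundant of the list, had 9676, 10089.8 and 10353. The list's median was 0.03. For this list and the next, the shares over all genes tested were 11.8% higher and 3.77% lower between stiff and soft. Of 10 genes of fatty acid oxidation that met the minimum mean, 0 were called, with a median of -0.10, and 8 were lower and 2 higher in the stiff library. Acadvl, the very long chain acyl-CoA dehydrogenase and the most abundant of them by its mean, had 4017, 3984 and 3953.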
